A study of Mus musculus with 24 samples.

Results

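Cytosolic ribosomal protein genes were described in 4 kinds of tissue-resident macrophage from wild-type (WT) mice and from mice of the genotype labelled Z165KO. The members were protein-coding genes whose mouse symbol is Rpl, Rps or Rplp with a number and, at most, a letter a, x, y or l and further digits. Rpsa was added, and the S6 kinase genes, whose symbols also begin with Rps, were left out. Symbols of the series with other endings fall outside the rule. The rule used names only and no measured value, and it gave 83 of 55487 genes. Of these, 51 encode proteins of the large subunit and 32 proteins of the small subunit, and 6 of the 83 are alternative paralogues: Rpl3l, Rpl7l1, Rpl10l, Rpl22l1, Rpl39l and Rps27l. They lie on 19 chromosomes, 4 of them on X.

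The macrophages came from lung (alveolar macrophages), liver (Kupffer cells), brain (microglia) and spleen, in both genotypes, with 3 libraries in each of the 8 groups. Each library was made from 100000 sorted macrophages with a SMARTer Ultra Low kit, which amplifies whole-transcript cDNA. The labels give no strain, age or sex, do not describe the Z165KO allele, and do not say whether libraries of a group came from separate animals. The p-values therefore cover only the spread among these libraries, which may be technical. Totals ran from 50449347 to 65981787 assigned reads. Marker genes listed for each type matched the labels: in CPM, counts scaled to the library total, the summed alveolar list was at 22480 to 32920 in lung libraries and at most 1630 elsewhere. Zeb2, named in the title of the series, was at 297, 282 and 190.4 CPM in WT alveolar macrophages and at 139, 126 and 142 CPM in Z165KO ones. The log2 difference of Zeb2 there was −0.89 ± 0.19 (SE, n = 3 and 3, edgeR's quasi-likelihood adjusted p = 0.116), and in the other 3 types the adjusted p was 0.774 or above. Since the allele is not described, this gene does not check the genotype labels.

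Ribosomal proteins and ribosomal RNAs make up the subunits that translate mRNA, and most cells hold the proteins in near-equal amounts because 1 copy of each enters a ribosome. The ribosome's acidic stalk is the exception, with several copies of Rplp1 and Rplp2 around Rplp0. Many vertebrate ribosomal protein mRNAs begin with a C followed by a run of pyrimidines, the 5′ terminal oligopyrimidine (TOP) element, through which mTORC1 and Larp1 control their translation and stability. A few of the genes have a second, diverged copy in the genome that is used in particular tissues, such as Rpl3l in heart and skeletal muscle and Rpl10l and Rpl39l in testis.

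The annotated starts of these genes show the element only in some. RefSeq promoter windows (GRCm38.p6, 250 bases before to 50 bases after the annotated start) matched 63 of the 83 members. A C at the first base followed by at least 4 more C or T was found at 13 of the 63 (20.6%), against 813 of 27025 genes of the table with a window (3.01%). The motif CCGGAAG or its reverse complement CTTCCGG, the core bound by many ETS-family factors, was in the window of 26 of the 63 (41.3%), against 2683 of the 27025 (9.93%), and 8 members had both. Annotated starts can miss the main start used in a cell, so a window without the letters says only that they are not at that annotated base. The lines below give 25 bases before and 15 bases from the start, 5′ to 3′, with the pyrimidine run in capitals, for 3 members with the element that were low in microglia, for Rps27, the canonical partner of Rps27l, and for 5 of the members described singly further on.
Rpl38 (chr11:114668555-114668594, plus strand): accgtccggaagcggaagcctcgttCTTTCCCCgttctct
Rps18 (chr17:33955651-33955690, minus strand): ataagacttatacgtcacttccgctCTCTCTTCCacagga
Rpl28 (chr7:4792940-4792979, plus strand): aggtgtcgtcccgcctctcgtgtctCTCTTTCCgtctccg
Rps27 (chr3:90213634-90213673, minus strand): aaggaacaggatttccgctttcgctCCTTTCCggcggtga
Rps27l (chr9:66946061-66946100, plus strand): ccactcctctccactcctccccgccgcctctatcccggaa
Rpl22l1 (chr3:28805483-28805522, plus strand): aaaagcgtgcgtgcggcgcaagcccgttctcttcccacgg
Rpl7l1 (chr17:46782642-46782681, minus strand): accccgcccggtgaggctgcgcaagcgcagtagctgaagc
Rpl10a (chr17:28328446-28328485, plus strand): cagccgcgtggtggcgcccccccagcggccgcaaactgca
Rpl3l (chr17:24727801-24727840, plus strand): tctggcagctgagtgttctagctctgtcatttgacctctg
The first 4 carry the run at the annotated start, and the paralogues Rps27l, Rpl22l1, Rpl7l1 and Rpl3l and the gene Rpl10a do not. Rpl10a, Rps27l and Rpl3l have a further annotated start each, which lacks it too.

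Almost all members were expressed. Rpl10l, a retrogene copy of Rpl10, had 0 counts in all 24 libraries, and 82 members passed the expression filter in the WT libraries. In TPM, a level that also takes each gene's length into account, the mean over the 12 WT libraries had a median of 104.6 among the 82, with quartiles of 59.77 and 206.6. Of them, 44 were at 100 TPM or above. Of the stalk proteins, Rplp0 had the highest mean of all, 720.2 TPM (378 to 1105 over the 12 WT libraries), Rplp1 followed with 697 TPM (372 to 1138), and Rplp2 was at 134 TPM. Rpl36 and Rpl4 of the large subunit were at 477 and 455 TPM.

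At the low end were 6 members under 10 TPM: Rpl3l (1.15), Rpl24 (1.16), Rps10 (1.98), Rpl39l (3.97), Rpl13a (5.33) and Rpl23a (7.76). Rpl24, Rps10, Rpl13a and Rpl23a are core proteins of the ribosome and not alternative copies. Another annotated gene overlaps 83.4% of the coding bases of Rpl24, 80.1% of those of Rps10, 90.3% of those of Rpl13a and 55.3% of those of Rpl23a. The sources used here do not say how reads in such overlaps were counted, so the levels of these 4 are uncertain. The 317 named pseudogenes of the members held 0.0117 to 0.0323% of counts per library, against 0.413 to 0.908% for the members. How reads that match several copies were assigned is likewise not stated.

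As a group, the members took a smaller share of reads in microglia than in the other 3 types, with 1 library apart from the rest. Their summed share was 0.637, 0.754 and 0.908% of counts in the 3 WT alveolar libraries and 0.681, 0.754 and 0.874% in the 3 WT Kupffer cell libraries. It was 0.733, 0.606 and 0.707% in WT splenic macrophages and 0.413, 0.757 and 0.444% in WT microglia. In Z165KO cells the shares were 0.881, 0.854 and 0.847% (alveolar), 0.755, 0.706 and 0.803% (Kupffer), 0.549, 0.567 and 0.672% (splenic) and 0.430, 0.450 and 0.472% (microglia). Of the 6 microglia libraries, 5 thus lay below all 18 libraries of the other types, the lowest of which was at 0.549%, while microglia WT replicate 2 lay among them. These are shares of reads and give no amount of RNA per cell. In bulk RNA, other cells in a sorted sample and a lower level in the macrophages themselves cannot be told apart.

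**Figure D1:**
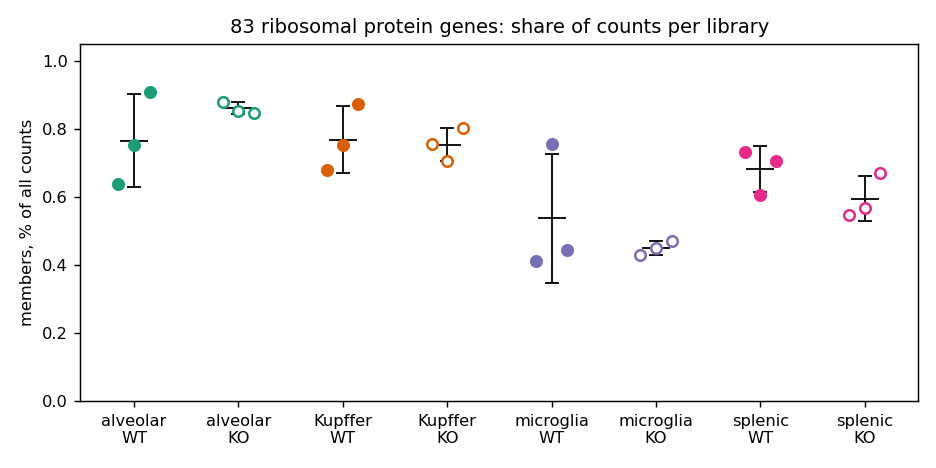
Summed share of reads taken by the 83 ribosomal protein genes (percent of counts, vertical axis from 0) in each library of the 4 macrophage types; filled points are WT libraries and open points Z165KO (KO) libraries. The microglia libraries sit between 0.413 and 0.472%, except WT replicate 2 at 0.757%.

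Since its member share was the highest of the microglia libraries, leaving out microglia WT replicate 2 lowers the members in WT microglia by construction. Counts without it are therefore no separate support for a low level there. Microglia WT replicate 2 stood apart in other ways as well. It had 20646 genes with at least 10 counts, against 17220 to 18198 in the other 5 microglia libraries, and mitochondrially encoded genes held 0.317% of its counts, against 0.132 to 0.181%. Short genes as a class were higher in it: genes with under 1000 exon bases exceeded WT replicates 1 and 3 by a median of 0.66 on the log2 scale (190 genes), those of 4000 to 8000 bases differed by −0.14 (3614 genes), and the members by 0.88. Members have a median exon length of 1770 bases, against 2928 for all 24297 genes with at least 10 counts in at least 3 libraries. The comparisons are therefore also given from a fit in which each library's trend of the other genes on exon length is taken out.

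**Figure D2:**
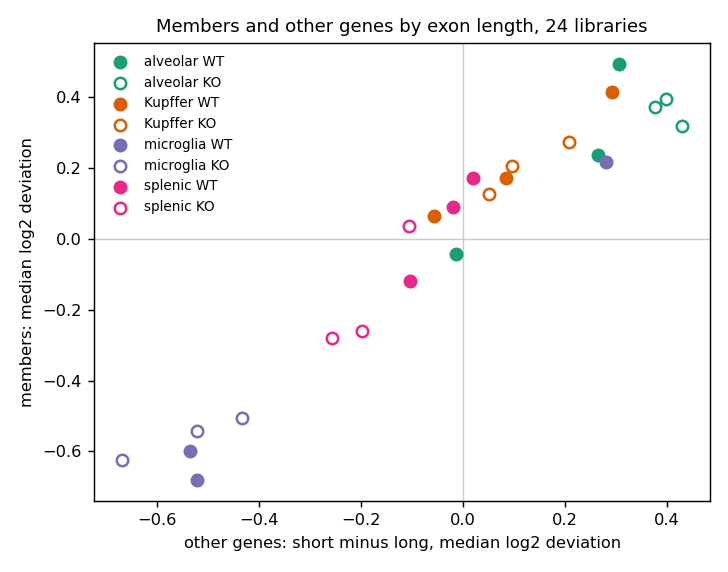
Each point is 1 library: the horizontal axis is the median log2 deviation of short genes (under 1500 exon bases) minus that of long genes (4000 bases or more), the vertical axis the median log2 deviation of the members, both from the mean over all 24 libraries; colours are the macrophage types, filled points WT and open points Z165KO. The other 5 microglia libraries lie at −0.433 or below on the horizontal axis and at −0.506 or below on the vertical, and microglia WT replicate 2 is at 0.281 and 0.217.

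The members differed between WT macrophage types by a modest fold. For the 75 members of at least 10 CPM, the highest type mean exceeded the lowest by a median of 1.6-fold, against 2.1-fold for all 9140 such genes. In a single test across the 4 WT types, 20 of 82 members were called at an adjusted p under 0.05 (edgeR), where 52.3% of the 21679 genes tested were. Without microglia WT replicate 2 the count was 59, against 49.6% of genes. It was 9 to 11 without alveolar WT replicate 2 or 3 or microglia WT replicate 1 or 3, where the share of all genes is not given here. In the 12 Z165KO libraries, which hold no library like microglia WT replicate 2, the count was 73, against 56.9% of genes.

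Microglia had lower levels of many members of both subunits. Against the mean of the other 3 WT types, 25 of 82 members were lower and 2 higher, where 20.3% of genes were called lower and 21.7% higher. The median member differed by −0.40 on the log2 scale, with 7 of 82 above 0, against 0.02 for all genes. Without microglia WT replicate 2, 66 were lower and 2 higher, with a median of −0.72, where 18.3% of genes were called in each direction. The lower median follows from leaving out the microglia library with the highest member share. Leaving out microglia WT replicate 1 or 3 left 9 called, and the share of all genes in those fits is not given here. Among Z165KO libraries 69 were lower and 2 higher, with a median of −0.70, where 21.2% of genes were lower and 22.3% higher. All 27 members called in the WT fit were also called in the Z165KO fit, which shares no library with it. That fit called 71 of 82 members, so most of any 27 would be shared.

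The subunits had like medians. In WT libraries the median difference in microglia was −0.41 for the 46 large-subunit and stalk members (13 lower, 1 higher) and −0.41 for the 31 of the small subunit (10 lower). The ratio of summed counts of large-subunit to small-subunit members was 1.72 to 1.73 in the Z165KO microglia libraries, above all 9 other Z165KO libraries (1.53 to 1.58). In TPM the same ratio was 1.64 ± 0.029 (SD, n = 3) in those microglia and overlapped that of Z165KO alveolar macrophages, 1.62 ± 0.021 (SD, n = 3). Members with the TOP element at the annotated start had a median of −0.47 (5 of 13 lower) and those without it −0.37 (14 of 49 tested lower). Among Z165KO libraries these medians were −0.75 and −0.67. Whether the classes differ was not tested.

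Rplp0, the base of the stalk that recruits elongation factors, shows the pattern at the highest level. It was at 191, 309.7 and 206 CPM in WT microglia and at 195, 192 and 215 CPM in Z165KO microglia. Every one of the 18 libraries of the other types lay between 283 and 600.0 CPM, so only microglia WT replicate 2 reached into their range. The log2 difference was −0.80 ± 0.16 (SE, adjusted p = 0.00200) between WT types and −1.10 ± 0.16 (adjusted p = 0.000211) between Z165KO types.

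Among the members called lower were Rpl38, Rps27l, Rpsa and Rps26. Rpl38, a small protein of the large subunit known for its part in the translation of Hox mRNAs, was at 12.1, 23.6 and 12.8 CPM in WT microglia. It was at 22.9, 31.8 and 38.7 CPM in WT alveolar macrophages, at 28.7, 38.2 and 46.8 in Kupffer cells and at 34.7, 29.6 and 36.0 in splenic macrophages. Microglia replicate 2 thus lay just above the lowest alveolar library, and the log2 difference was −1.02 ± 0.25 (SE, adjusted p = 0.00654). Rpsa, also known as the laminin receptor precursor, was at 51.1, 117 and 63.2 CPM in WT microglia, against 115 to 191 CPM in the 9 other WT libraries. Its log2 difference was −0.91 ± 0.24. Rps26, which lines the channel by which mRNA leaves the small subunit, differed by −0.88 ± 0.23, and its adjusted p was 0.0104. For Rpsa and Rps26 the call was lost without microglia WT replicate 1 or 3 (adjusted p from 0.0506 to 0.053). Between Z165KO types the log2 differences of Rpl38, Rpsa and Rps26 were −1.27, −1.29 and −1.23, all called.

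Most calls were also made with the length trend of the other genes taken out. Then 34 members were lower and 2 higher in WT microglia, with a median of −0.38, where 42.2% of genes were called in either direction. Counted in both directions, the 36 members are a share near that of all genes. Shares of all genes by direction are not given for the fits with this correction. Of the 27 members called without that correction, 25 were among these 36. The same fit gave 61 lower and 2 higher without microglia WT replicate 2 (median −0.62, 35.9% of genes called), and 63 lower and 2 higher between Z165KO types (median −0.56, 42.8% of genes called). All 36 members called in WT under this fit were called in Z165KO as well, where 65 members were called, so most of any 36 would be shared. For Rpl38, with 542 exon bases, the WT difference became −0.57 ± 0.16, and for Rplp0, with 1659, it was −0.78 ± 0.12. Between Z165KO types, in CPM, other genes under 1000 bases differed between microglia and the rest by a median of −0.78. Those of 1000 to 1500 bases differed by −0.53 and those of 1500 to 2500 bases by −0.25. Members under 1500 bases differed by −0.75 and longer members by −0.65. Between WT types the same classes of other genes were at −0.69, −0.32 and −0.11. Members under 1500 bases were at −0.60 there and longer members at −0.45. Exon bases here join all annotated transcripts of a gene, so they can exceed the length of its mRNA. Rps24, for example, has 6256 exon bases and 402 coding bases. How fully the fit takes out a length effect in the members was not tested.

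Complete separation of libraries, a count without a model, exceeded the share of all genes in Z165KO and not in WT. All 3 Z165KO microglia libraries lay below the 9 other Z165KO libraries for 49 of 82 members, where 11.9% of genes did so. Among WT libraries this held for 8 of 82 members (among them Rpl29, Rpl35, Rpl4, Rplp0, Rps19, Rps2 and Rps27l), a share no higher than the 11.9% of all genes. Rpl10a was the 1 member of 82 that lay wholly above the others in microglia, in WT (11.3% of genes) and in Z165KO (13.2%).

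**Figure D3:**
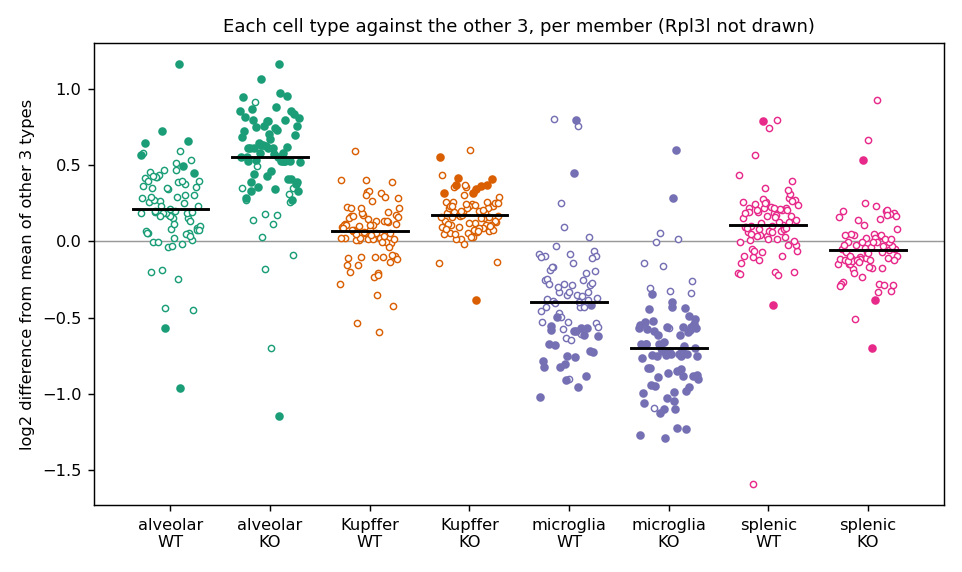
Log2 difference of each tested member between 1 macrophage type and the mean of the other 3, in the WT libraries and in the Z165KO (KO) libraries; filled points passed an adjusted p under 0.05, black lines are medians over the members drawn, and Rpl3l lies off the scale and is not drawn. In microglia the points centre on −0.40 in WT and −0.70 in Z165KO.

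Alveolar macrophages had higher levels of some members in WT and of most members in Z165KO. In WT, 8 of 82 members were higher and 2 lower than the mean of the other types, where 17.3% of genes were called higher and 14.7% lower, and the median member differed by 0.22. Between Z165KO types 66 were higher and 1 lower, with a median of 0.56, where 20.6% and 19.5% of genes were. Without microglia WT replicate 2, 34 were higher and 1 lower in WT, where 32.2% of genes were called. Leaving out any 1 alveolar or splenic library, or Kupffer cell replicate 1 or 2, left 3 to 6 called. The share of all genes in those fits is not given here. All 3 Z165KO alveolar libraries lay above the 9 others for 32 of 82 members, where 11.1% of genes did, and in WT this held for Rpl10, Rpl3l and Rps27l, against 10.9% of genes. Each type is set against a mean that includes the other types, so the low microglia values enter the alveolar difference. With the length trend taken out, 12 were higher and 4 lower in WT (33% of genes called), and 51 higher and 2 lower in Z165KO (38.9%). Short genes outside the group were also higher. In CPM, other genes under 1000 bases differed by a median of 0.27 in WT and 0.49 in Z165KO alveolar macrophages, and those of 4000 to 8000 bases by 0.04 and −0.03. The members differed by 0.21 and 0.54 on that measure. Whether the members differ from other short genes was not tested.

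Among the members called higher in WT alveolar macrophages were Rpl10, Rps2 and Rps26. Rpl10, an X-linked protein that joins the large subunit late in its assembly, was at 239, 243 and 258 CPM there. In the 9 other WT libraries it was at 141 to 224 CPM, so the groups did not overlap, and the log2 difference was 0.57 ± 0.14 (SE, adjusted p = 0.00804). Scaled on the members, its call was lost (adjusted p = 0.0858). Rps2, at the entry of the mRNA channel, differed by 0.64 ± 0.16 (adjusted p = 0.0102) and lost its call without alveolar replicate 3 (adjusted p = 0.0776). Rps26 differed by 0.66 ± 0.21 and lost its call in 7 of 22 alternatives, leaving out any 1 alveolar library among them.

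In Kupffer cells and splenic macrophages few members were called. Set against the other 3 types, the median member was at 0.07 on the log2 scale in WT Kupffer cells, against 0.06 for all genes, and at 0.10 in WT splenic macrophages, against 0.01. In CPM without TMM scaling the median of the 83 members was 0.24 in WT Kupffer cells and 0.21 in WT alveolar macrophages, so the scaling sets how far the Kupffer median lies from 0. No member was called in WT Kupffer cells by edgeR, where 22.8% of genes were. DESeq2 called 1 (26.4% of genes), and edgeR called 4 without microglia WT replicate 2 (23.5%). At an unadjusted p under 0.05 there were 3 by edgeR, where 33.2% of genes were. Between Z165KO types 9 were higher and 1 lower in Kupffer cells, where 23.5% of genes were called, and 4 were called with the length trend taken out (23.4%). In WT splenic macrophages, Rpl21 was higher and Rpl7l1 lower, where 24.2% of genes were called. Without microglia WT replicate 2 there were 5 (23.9% of genes), and without splenic replicate 1 or 3 there was 1. In Z165KO splenic macrophages Rpl21 was higher and Rpl7l1 and Rpl10a lower, where 28.8% of genes were called.

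Rpl21, a large-subunit protein, was the 1 member called higher in the spleen. It was at 126, 104 and 105 CPM in WT splenic macrophages, above all 9 other WT libraries, the highest of which was microglia replicate 2 at 96.5 CPM. Such a separation held for 1 of 82 members and for 1069 of 21960 genes. The WT difference was 0.79 ± 0.18 on the log2 scale (SE, adjusted p = 0.00728), and the Z165KO one 0.53 ± 0.11 (adjusted p = 0.00391). In Z165KO splenic macrophages Rpl21 was at 82.1, 79.8 and 105 CPM, a range that overlapped the 80.7 to 103 CPM of Z165KO Kupffer cells. In WT alveolar macrophages Rpl21 differed by −0.56 ± 0.19, a call lost in 8 of 22 alternatives. Rpl21 has 15 named pseudogenes in the annotation.

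Beyond their common level, some members moved on their own between types. Measured against the median member of each library, with 0.5 CPM added to each value, the widest ranges between WT types were those of Rpl3l, Rpl22l1 (1.63 on the log2 scale), Rpl39l (1.47), Rpl10a (1.19), Rps27l (1.16) and Rpl21 (1.08). The added 0.5 CPM narrows the range of members at a few CPM, and for Rpl3l, with 0 counts in microglia, it sets the range, which is therefore not given. Of these 6, 4 are alternative paralogues. Rpl39l was not called across the WT types (edgeR adjusted p = 0.591), and its range between Z165KO types was 0.05. Its WT range is therefore not read as a difference between types. With libraries scaled on the members themselves, which moves the median of all genes in microglia to 0.48, 15 members were called across the WT types (47% of genes) and 28 across the Z165KO types (62.8%). Shared between both were 13, among them Rpl10a, Rpl7l1, Rps27l, Rpl21 and Rpl22l1.

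Rps27l, a paralogue of the small-subunit protein Rps27 and a known target of p53, was high in the lung and low in the brain. It was at 68.7, 81.9 and 92.9 CPM in WT alveolar macrophages, at 42.5, 44.8 and 42.1 in Kupffer cells, at 46.9, 42 and 37.8 in splenic macrophages and at 20.8, 36.6 and 21.4 in microglia. No WT alveolar or microglia library overlapped those of another type. The log2 difference was 1.16 ± 0.15 in WT alveolar macrophages (SE, adjusted p = 0.000148) and −0.95 ± 0.17 in WT microglia, and in the Z165KO libraries 1.16 ± 0.11 and −1.22 ± 0.12. Both WT calls held in all 22 alternatives. Its partner Rps27 was at 42.5 to 71.3 CPM in WT alveolar macrophages and 54.1 to 107 CPM in WT microglia. The TPM ratio of Rps27l to Rps27 was 1.83 ± 0.211 (SD, n = 3; 1.67 to 2.07) in WT alveolar macrophages, 0.680 ± 0.0807 in Kupffer cells, 0.693 ± 0.135 in splenic macrophages and 0.458 ± 0.0286 in microglia. In Z165KO cells the ratio was 1.48 ± 0.239, 0.934 ± 0.210, 0.881 ± 0.108 and 0.511 ± 0.0964 in the same order. In TPM, which depends on the annotated lengths, the paralogue thus exceeded its partner in every alveolar library. In CPM it did so in all but Z165KO alveolar replicate 2, where Rps27l was at 70.2 and Rps27 at 71.5. Rps27l has 816 exon bases and spans chr9:66946086-66949516 on the plus strand (mm10), and the lung difference was 0.97 ± 0.11 with the length trend taken out.

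Rpl10a, a protein of the mobile L1 stalk beside the exit site of the ribosome, ran against the group. It was at 93.0, 129.8 and 87.5 CPM in WT microglia and at 80.1, 82.8 and 87.6 CPM in Z165KO microglia. The 9 other WT libraries lay between 53.8 and 76.1 CPM and the 9 other Z165KO libraries between 40.8 and 72.8 CPM. The groups did not overlap in either genotype, and the log2 difference was 0.79 ± 0.14 in WT (SE, adjusted p = 0.000763) and 0.60 ± 0.10 in Z165KO (adjusted p = 0.000802). Scaled on the members, it was 1.23 in WT and 1.27 in Z165KO. The gene spans chr17:28328471-28331033 on the plus strand (mm10), and its WT call held in all 22 alternatives.

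Rpl7l1, a relative of the large-subunit protein Rpl7, was the other member called higher in WT microglia. WT microglia had 108, 120.5 and 132 CPM, WT alveolar macrophages 101, 99.3 and 128, Kupffer cells 93.7, 96.9 and 93.7 and splenic macrophages 69.6, 81.6 and 72.8. Microglia and alveolar libraries overlapped, and the splenic ones lay below all others. This held for 1 of 82 members and for 1032 of 21960 genes. The log2 difference was 0.45 ± 0.10 in WT microglia (SE, adjusted p = 0.00490) and −0.41 ± 0.11 in WT splenic macrophages (adjusted p = 0.0169). The splenic call was lost without splenic replicate 1 or 3 and when scaled on the members, and the Z165KO splenic difference was −0.70 ± 0.10. The TPM ratio of Rpl7l1 to Rpl7 was 1.09 ± 0.0506 (SD, n = 3) in Z165KO microglia and 0.490 ± 0.0185 in Z165KO splenic macrophages. In WT microglia it was 1.03 ± 0.378, with replicate 2 at 0.636.

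Rpl22l1, the paralogue of Rpl22, was lowest in alveolar macrophages. It was at 3.91, 4.68 and 5.54 CPM there, at 9.42, 6.35 and 2.88 in WT Kupffer cells, at 11.7, 12.7 and 8.82 in microglia and at 12, 9.53 and 11.6 in splenic macrophages. One Kupffer cell library lay below the alveolar ones. The log2 difference of −0.96 ± 0.32 (SE, adjusted p = 0.0392) was called, but not in 13 of 22 alternatives, and between Z165KO types it was −1.14 ± 0.37 (adjusted p = 0.0310). The TPM ratio of Rpl22l1 to Rpl22 was 0.259 ± 0.0110 (SD, n = 3) in WT alveolar macrophages, 0.773 ± 0.00974 in splenic macrophages and 1.06 ± 0.429 in microglia. Of the coding bases of Rpl22l1, 28.6% overlap an annotated gene on the other strand, and the sources used here do not state how strand was handled.

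**Figure D4:**
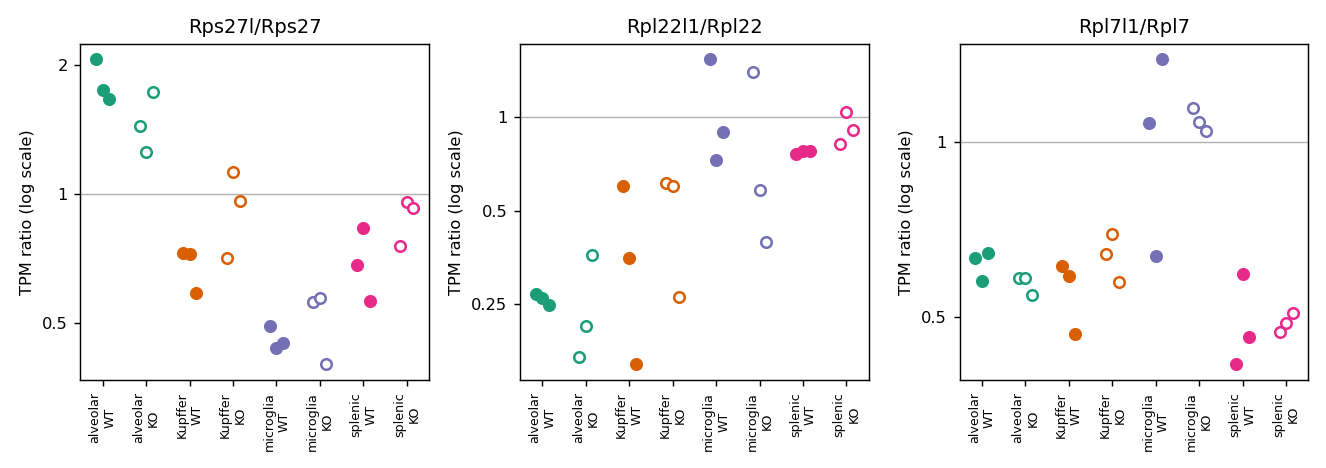
TPM ratio of an alternative paralogue to its canonical partner in each library (logarithmic vertical axis) by macrophage type; filled points are WT and open points Z165KO (KO) libraries. In TPM, Rps27l exceeds Rps27 in every alveolar library, with WT values of 1.67 to 2.07.

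Rpl3l, the paralogue of Rpl3 known from striated muscle, had the lowest mean TPM of the tested members and was highest in the lung libraries. It was at 1.23, 2.92 and 2.14 CPM in WT alveolar macrophages (365 counts in all) and at 2.74, 3.19 and 2.95 CPM in Z165KO ones (526 counts). WT Kupffer cells had 49 counts over 3 libraries, WT splenic macrophages 10, Z165KO Kupffer cells 13, Z165KO splenic macrophages 7, and WT and Z165KO microglia 0. Against a floor of 3 counts over the 3 microglia libraries, the alveolar level was at least 110-fold higher in WT and at least 158-fold higher in Z165KO. The TPM ratio of Rpl3l to Rpl3 was 0.0162 ± 0.00635 (SD, n = 3) in WT alveolar macrophages. Rpl39l, the paralogue of Rpl39, had group mean TPM ratios of 0.0408 to 0.201 to its partner with overlapping ranges, and none of its contrasts between WT types was called.

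The other genes of the translation machinery were taken from lists. Of 22 translation factors whose mRNAs are of the TOP class, 13 were lower and 1 higher in WT microglia, where 20.3% of all genes were lower and 21.7% higher. Without microglia WT replicate 2 the counts were 20 and 1 (18.3% of genes in each direction), and in Z165KO microglia 20 and 1 (21.2% and 22.3%). The elongation factor Eef2 differed by −0.79, Eef1a1 by −0.48 and the initiation factor Eif4b by −0.85 on the log2 scale in WT. In WT alveolar macrophages 12 of the 22 were higher and 1 lower, with Eef2 at 0.46, where 17.3% of genes were higher and 14.7% lower. The median of this list was −0.44 in WT microglia and 0.43 in WT alveolar macrophages, against 0.02 and 0.00 for all genes.

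Of 55 ribosome biogenesis genes, 14 were lower and 1 higher in WT microglia, against 20.3% and 21.7% of all genes, and the median was −0.22. Among those called were Rrs1 at −1.23 and Nop10 at −1.18. In WT alveolar macrophages 15 of the 55 were higher and 2 lower, against 17.3% and 14.7% of all genes, with a median of 0.27 and with Nhp2 at 1.18. The noncoding hosts of small nucleolar RNAs also carry a TOP start. Of 7 tested, Snhg8 (1.77) and Gas5 (0.68) were higher in WT microglia, where 21.7% of genes were, and 6 were lower in WT alveolar macrophages (14.7% of genes), where Gas5 differed by −1.58 and Snhg8 by −1.62. In Z165KO alveolar macrophages 3 of the 7 were lower (19.5% of genes).

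Of 20 genes of mTORC1, Myc and Larp1 control, 5 were higher and 4 lower in WT microglia, shares near the 21.7% and 20.3% of all genes. In WT alveolar macrophages the counts were also 5 and 4, against 17.3% and 14.7% of all genes. Of 14 genes of ribosome surveillance and p53 response, 4 were higher and 6 lower in WT microglia and 5 higher and 3 lower in WT alveolar macrophages, against the same shares of all genes. Rack1, a scaffold of the small subunit, was lower in WT microglia (log2 difference −0.62), where 20.3% of all genes were. It is 1 of 7 listed ribosomal proteins and copies outside the naming rule, and it does not stand for the others, which are not described here.

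The comparison of Z165KO with WT within each macrophage type asks whether the members respond to the genotype. In none of the 4 types did edgeR call a member. The share of all genes called was 0.317% in alveolar macrophages, 0.0629% in Kupffer cells, 0% in microglia and 0.747% in splenic macrophages. At an unadjusted p under 0.05 there was 1 member of 82 in alveolar macrophages (Rpl8), 1 of 82 in Kupffer cells (Rpl7l1), 0 of 80 in microglia and 5 of 81 in splenic macrophages (among them Rpl34, Rps27, Rpl12 and Rps25). The share of all genes at that threshold was 12.5%, 6.94%, 4.44% and 11.7% in the same order. DESeq2 called Rpl34 in splenic macrophages (log2 difference −0.38, adjusted p = 0.0442) and no other member. It called 5.07% of all genes in splenic macrophages, 5.31% in alveolar macrophages, 2.16% in Kupffer cells and 0.52% in microglia. A test of whether the genotype effect differs between types called 0 of 82 members by edgeR, against 0.524% of all genes, with 0 at an unadjusted p under 0.05 (11.6% of genes), and DESeq2 called 0.

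In alveolar macrophages the median log2 difference between Z165KO and WT was 0.18, with 71 of 82 above 0, against −0.01 for all genes. It was 0.06 without WT replicate 1, the lowest of the 6 libraries in summed share, and 0.10 with the length trend taken out. The summed share was 0.766 ± 0.136% (SD, n = 3) in WT and 0.861 ± 0.0178% in Z165KO, and the Z165KO libraries lay within the WT range. Rpl8, a large-subunit protein, was at 128, 139 and 175 CPM in WT and at 173, 183 and 182 CPM in Z165KO alveolar macrophages, which overlapped, and differed by 0.31 ± 0.13 on the log2 scale. Rpl10 was the member whose Z165KO libraries all lay higher (261 to 316 against 239 to 258 CPM), where 7.58% of genes did so. In the same cells Myc, a transcriptional activator of ribosome genes, was at 238, 202 and 209.6 CPM in WT and 88.5, 90.9 and 118 in Z165KO (log2 difference −1.10 ± 0.13, adjusted p = 0.0263).

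In Kupffer cells the median was −0.02, with 37 of 82 members above 0, and it was 0.11 without WT replicate 3. Rpl7l1 had the smallest p, at 93.7, 96.9 and 93.7 CPM in WT and 111, 114 and 109 CPM in Z165KO Kupffer cells. Its groups did not overlap and it differed by 0.25 ± 0.10 on the log2 scale, without passing the adjusted threshold. All Z165KO Kupffer cell libraries lay higher for 3 of 82 members, where 1135 of 19248 genes did so. They lay lower for 1 of 82 members, where 1350 of 19248 genes did so. Neither share of members was higher than that of all genes. In microglia the median was −0.25, with 2 of 80 above 0, and without WT replicate 2 it was 0.06, with 54 of 81 above 0.

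In splenic macrophages the median was −0.18, with 6 of 81 members above 0, and −0.13 with the length trend taken out. Rpl34, a large-subunit protein, had 59.9, 52.2 and 55.6 CPM in WT and 40.6, 37.4 and 46.4 CPM in Z165KO splenic macrophages. Its groups did not overlap, and the log2 difference was −0.39 ± 0.12 (SE, edgeR adjusted p = 0.254). All 3 Z165KO libraries lay below the WT ones for 11 of 81 members, Rpl34, Rps27 and Rpl10a among them, where 11.9% of genes did. The summed share of 0.682 ± 0.0672% in WT and 0.596 ± 0.0664% in Z165KO overlapped between genotypes.

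Markers of other cells moved with the genotype in the spleen. The summed CPM of 13 B cell markers was 1337 to 1984 in WT and 66.3 to 118 in Z165KO splenic libraries, where Pax5 was at 0 in all 3, and that of 11 neutrophil markers was 168 to 249 in WT and 640 to 849 in Z165KO. The B cell sum was 87.1 to 176 in WT and 7.95 to 9.40 in Z165KO lung libraries, 775 to 1253 and 51.0 to 123 in liver libraries, and 573 to 698 and 507 to 675 in brain libraries. Their part in the members' values was not tested.

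**Figure D5:**
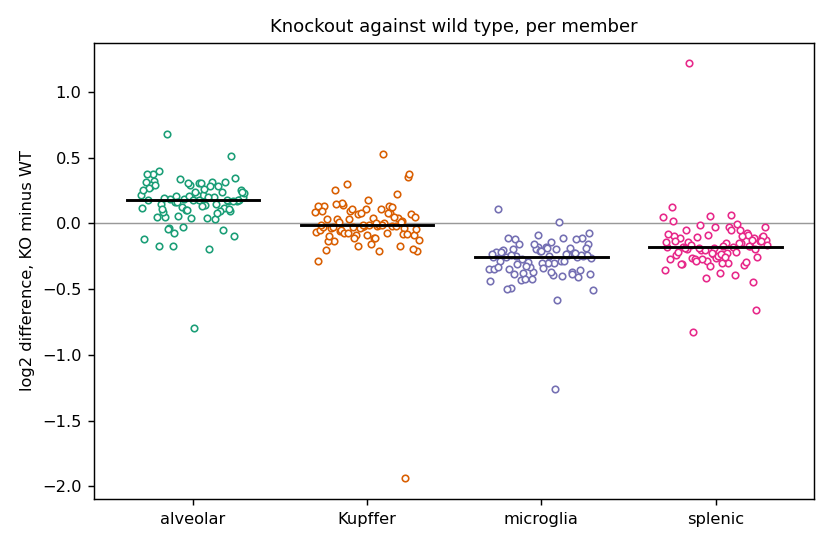
Log2 difference of each tested member between Z165KO and WT in each macrophage type (vertical axis), with the median as a black line; no member passed an adjusted p under 0.05. The medians are 0.18 in alveolar macrophages, −0.02 in Kupffer cells, −0.25 in microglia and −0.18 in splenic macrophages.

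The intervals of the members cover the spread among these libraries, which may be technical, so they do not bound a genotype effect between animals. The 95% interval of the log2 difference lay within −1 and 1 for 77 of 82 members in alveolar macrophages, 76 of 82 in Kupffer cells, 62 of 80 in microglia and 77 of 81 in the spleen. The median SE was 0.17, 0.16, 0.25 and 0.15 in the same order. Members whose interval reached beyond −1 or 1 were low or overlapped ones such as Rpl39l, Rps10 and Rpl23a, and in microglia also well-expressed ones such as Rpl38 and Rps26. Of the 22 TOP-class translation factors and 55 biogenesis genes, 0 were called in any type by edgeR, and Myc in alveolar macrophages was the gene called in the lists on translation, biogenesis, their control and surveillance.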

How the data were processed

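RNA from sorted macrophages of 24 libraries was measured by bulk RNA-seq. The submitters' processing notes name DRAGEN, STAR, Subread, featureCounts, Salmon and the mm10 build, without roles. Per the file headers, the authors deposited gene counts, CPM and TPM in 1 table each. The table of counts has 55774 rows, of which 287 repeat a gene and were dropped. CPM recomputed from the deposited counts was the same. The exon length implied by TPM equals GENCODE vM21 for 98.84% of genes. TPM columns of 4 splenic libraries have a higher total than the others because of the repeated rows in the deposited table. These deposited columns were treated as a score, the authors' TPM on a slightly larger total, and enter only the WT mean levels and the ratios within a library.

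Counts were tested with edgeR 4.0.16 in R 4.3.3 (TMM scaling, filterByExpr with a minimum count of 10, quasi-likelihood F test, Benjamini-Hochberg over all genes tested, threshold 0.05). One fit served each cell type's Z165KO to WT comparison, 1 the 12 WT libraries and 1 all 24 (the interaction). Log2 differences carry standard errors from the fit. Named members were the paralogues with their partners, up to 6 called members in each direction per comparison, the 5 highest and lowest in TPM, and the 6 most variable relative to the median member; other members are named by count or position. Some members and listed genes that these rules pick are not reported here by name. Members and lists were chosen with earlier results of these data known. Alternatives were DESeq2 1.42.0, other scalings (DESeq2's size factors, TMM from other genes, scaling on the members), no filter, a fit of all libraries, named pseudogenes added, a replicate block and each library left out. Added after seeing the data were the length-trend offset (lowess, span 0.3), the 12 Z165KO libraries fitted alone, their combinations, and the counts of wholly separate libraries. With 3 against 3 libraries an exact permutation test cannot go below 0.1, so none is given for single genes. Tested on simulated counts with the design of the alveolar comparison between genotypes, the script recovered 16% of 2-fold and 48% of 4-fold changes among 16435 genes, with 3 false calls.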

Additional observations from a re-analysis of the deposited data

How the results depend on the processing

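For the 22 results on single members, no direction reversed and 408 of 456 values stayed on their side of the threshold. The median over all members, which has no test, did change sign. Between genotypes it went from −0.25 to 0.06 in microglia without WT replicate 2, and from −0.02 to 0.07 or 0.11 in Kupffer cells without Z165KO replicate 2 or WT replicate 3. In WT Kupffer cells against the other types it went from 0.07 to −0.02 without replicate 3. Scaling on the members sets their median near 0 by construction, with −0.02 in alveolar macrophages between genotypes. Between genotypes the count of called members was 0 under every alternative, except 1 with DESeq2 in splenic macrophages. Leaving out each library in turn gave 9 to 59 members across WT types, 3 to 35 in alveolar macrophages, 0 to 4 in Kupffer cells, 9 to 68 in microglia and 1 to 5 in splenic macrophages. The highest counts all came without microglia WT replicate 2, and 9 in microglia came without replicate 1 or 3. Scaled on the members, WT microglia had 16 and splenic macrophages 1. With the length-trend offset, alveolar macrophages had 16 and Kupffer cells 1, and DESeq2 gave 1 in Kupffer cells. Without microglia WT replicate 2 and with that offset, the counts were 57 across types, 35 in alveolar macrophages, 6 in Kupffer cells, 63 in microglia and 6 in splenic macrophages; scaled on the members instead, 17 in microglia and 1 in Kupffer cells. In the Z165KO libraries, scaling on the members gave 28 across types, 25 in alveolar macrophages, 2 in Kupffer cells and 26 in microglia, and the length-trend offset gave 4 in Kupffer cells and 6 in splenic macrophages. The share of all genes called is not given beside these counts, so they do not show a change particular to the members. The cause of the changes between settings was not tested. All-gene counts between genotypes differed by tool: DESeq2 called 922 genes in alveolar macrophages, 413 in Kupffer cells, 93 in microglia and 903 in splenic macrophages, against 55, 12, 0 and 133 by edgeR. The labels do not say that a replicate number marks a shared animal or day. The 12 same-numbered pairs of WT and Z165KO libraries of a type had correlations of −0.0496 to 0.0408, and same-numbered libraries of different types had −0.0224 to 0.0772 in WT and −0.0248 to 0.0301 in Z165KO (18 pairs each), so none passed 0.1. With a replicate block, 19 members were called across WT types, 30 in microglia, 8 in alveolar macrophages, 2 in splenic macrophages and 0 between genotypes. The share of all genes called with the block is likewise not given, so these counts show nothing particular to the members. Members at a few CPM or with overlapping genes are limited by depth and counting, as their intervals show.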
